A study of Mus musculus with 9 samples.

Results

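Inflammasomes are protein complexes in the cytosol that sense microbes and damage and activate inflammatory caspases. The 8 genes described here encode parts of that machinery in the mouse: the sensors Nlrp3, Nlrc4 and Aim2, the adaptor Pycard (ASC), the proteases Casp1, Casp4 and Casp8, and the pore protein Gsdmd. They were picked out by gene symbol, with earlier results of these data known. All 8 were among the 12204 genes of the deposited table and among the 12196 genes tested. In macrophages a priming signal such as lipopolysaccharide (LPS, a bacterial cell wall component sensed by a Toll-like receptor) raises the transcripts of some components, and a further signal then lets the sensor assemble with ASC and caspase-1. Caspase-1 cleaves the precursors of IL-1β and IL-18 and also gasdermin D, whose released end forms pores in the plasma membrane, a lytic death called pyroptosis. In mice Casp4 encodes the protease known as caspase-11, which binds LPS in the cytosol and cleaves gasdermin D without a sensor of the NLR family.

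The cells were macrophages grown from C57/Bl6J bone marrow for 6 days in medium with 20% L929 cell supernatant, a source of macrophage growth factor. The untreated group (UT) received nothing, the LPS group received LPS at 10 ng/ml for 4 h, and the LPS + BMS group received BMS303141, an inhibitor of ATP-citrate lyase, at 50 µM for 1 h ahead of the same LPS. Each group had 3 libraries of messenger RNA 3′ ends. Whether the replicates of a group were separate animals or cultures is not given, and the tests therefore weigh differences against a spread that may be no more than technical. No library received the inhibitor without LPS, no vehicle is named, and only transcripts were measured, not cleavage of the proteins or cell death.

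Values are log2 CPM (read counts scaled to a common total per library, on the log2 scale), quantile-normalised by the authors. Estimated from the value steps of each library, the depth was 3210000 to 5050000 reads in UT, 1840000 to 3210000 reads in LPS and 3560000 to 3750000 reads in LPS + BMS, the shallowest being LPS replicate 1. That library also stood apart on the second principal component, at -63.1 against -5.48 to 1.31 for the other 2 LPS libraries. All 8 macrophage markers checked (Adgre1, Csf1r, Cd68, Lyz2, Itgam, Mertk, Fcgr1, Cd14) were listed, and their summed level was 8010 to 8680 CPM in UT, 3990 to 4870 CPM in LPS and 4750 to 4830 CPM in LPS + BMS. Of 9 neutrophil markers 3 were listed (S100a8, S100a9, Csf3r), with a summed level of 8.84 to 31.4 CPM in UT, 41.3 to 69.0 CPM in LPS and 184 to 272 CPM in LPS + BMS; their part in the results was not tested. Of 5 stromal markers 3 were listed (Col1a1, Col1a2, Sparc; 3.02 to 15.3 CPM in any library), of 4 mast cell markers Hdc (2.21 to 2.59 CPM in UT, 106 to 118 CPM in LPS and 60.5 to 77.2 CPM in LPS + BMS) and of 7 lymphocyte markers Lck (0.651 to 7.53 CPM). None of 6 dendritic cell or 4 erythroid markers was listed. In bulk RNA, fewer expressing cells and less RNA per cell cannot be told apart.

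LPS raised 5 of the 8 genes, lowered 1 and left 2 without a detectable change, and the inhibitor changed none of them past the test when set against LPS alone. The sequences just ahead of 3 of these genes are given first, because Nlrp3 and Casp4 had the largest rises and Pycard was the gene that fell. They end at the base just before the gene's first base in GENCODE M21, are written 5′ to 3′ on the strand of the gene, come from RefSeq's GRCm38.p6 assembly, and carry matches to the classical NF-kB consensus in capitals.

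Nlrp3, chr11:59541319-59541567, plus strand: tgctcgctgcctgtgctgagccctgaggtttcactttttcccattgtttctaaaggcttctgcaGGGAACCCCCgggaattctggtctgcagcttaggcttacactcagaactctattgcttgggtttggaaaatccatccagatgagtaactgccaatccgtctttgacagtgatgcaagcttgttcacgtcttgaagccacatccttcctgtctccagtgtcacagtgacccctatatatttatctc

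Casp4, chr9:5308599-5308827, plus strand: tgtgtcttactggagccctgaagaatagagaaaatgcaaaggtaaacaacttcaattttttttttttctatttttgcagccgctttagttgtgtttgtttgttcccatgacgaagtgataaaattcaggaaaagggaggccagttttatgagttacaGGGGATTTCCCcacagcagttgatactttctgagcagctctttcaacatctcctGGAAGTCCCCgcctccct

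Pycard, chr7:127993868-127994117, minus strand: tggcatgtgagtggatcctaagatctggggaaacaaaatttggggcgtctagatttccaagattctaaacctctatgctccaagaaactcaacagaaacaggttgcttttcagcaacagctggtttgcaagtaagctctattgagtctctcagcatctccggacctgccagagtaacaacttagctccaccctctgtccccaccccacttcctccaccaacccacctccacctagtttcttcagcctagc

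Of the 8 members, 7 had a RefSeq promoter window, Gsdmd being the exception, in 9 windows of 300 bases (250 before to 50 after a start site). The classical NF-kB consensus, searched on both strands, matched in windows of 2 of these 7 members, Nlrp3 and Casp4. Of all 32851 windows 8.46% held a match, a share per window and not per gene. In Casp4, which had overlapping windows, the matches were GGGGATTTCC, the overlapping GGGATTTCCC and, on the other strand, the letters printed as GGAAGTCCCC, and in Nlrp3 the match was GGGAACCCCC. A narrower form, GGGA and TTCC with any 2 bases between, was found in none of the members' windows and in 1.47% of all. The classical form was taken up only after the narrower one had no match, so its matches lend no support to a link with the rises. Nor did any member's window hold GAAA, any 2 bases and GAAA (a motif of interferon regulatory factors, in 3.44% of all), TGANTCA (AP-1, 7.81%) or TTCNNNGAA (STAT factors, 8.30%). The narrower NF-kB form is contained in the classical one. A match is a description of these letters and says nothing of a factor's binding.

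**Figure D1:**
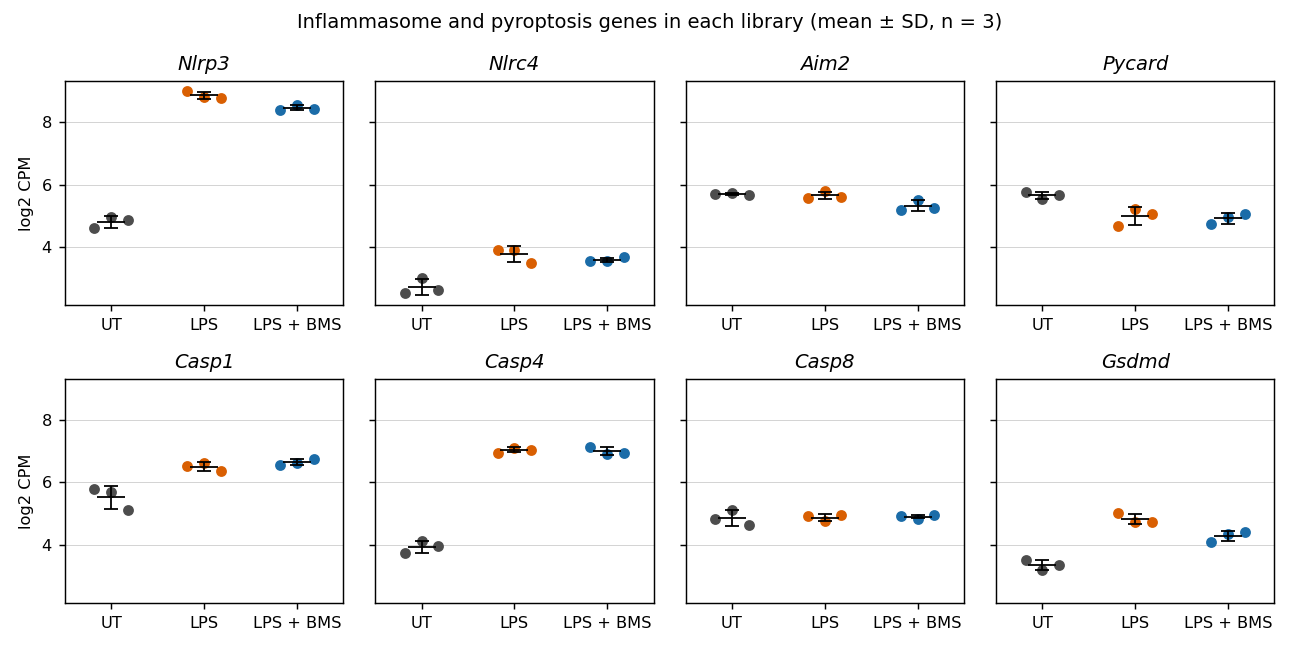
Log2 CPM (y axis) of the 8 genes in each library, by group on the x axis, replicates 1 to 3 from left to right within a group. Black bars give the mean and SD of 3 libraries; the Nlrp3 points lie at 4.60 to 4.97 in UT, 8.75 to 8.98 in LPS and 8.39 to 8.53 in LPS + BMS, while the Casp8 points overlap across the groups.

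Against untreated cells, limma called 6 of the 8 genes (adjusted p below 0.05), of which 5 were higher and 1 was lower, where 47.0% of all tested genes were called (21.5% higher and 25.4% lower). The members' median difference was 1.02 on the log2 scale, and that of all tested genes was -0.06. Since the members were chosen with earlier results known, these shares describe them and do not test the pathway. These 6 were also the genes whose LPS and UT values did not overlap, as was so for 52.6% of all genes. Every member stood at least 20 value steps above the lowest value of its library, which bounds its reads from below.

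Among the sensors, Nlrp3 rose most. Nlrp3 (ENSMUSG00000032691, chromosome 11, 59541568 to 59566956 in GRCm38, plus strand), which responds to potassium loss and many forms of damage, lay at 4.60, 4.97 and 4.86 log2 CPM in UT replicates 1 to 3, at 8.98, 8.81 and 8.75 in LPS and at 8.39, 8.53 and 8.41 in LPS + BMS. Every LPS library was far above every untreated one, and the LPS + BMS libraries fell just below the LPS range. The rise with LPS was 4.03 (SE 0.12), or 16.4-fold (limma, adjusted p = 2e-11). Nlrc4 (ENSMUSG00000039193, chromosome 17, 74425438 to 74459142, minus strand), which with NAIP proteins detects bacterial flagellin and secretion system proteins, rested on the fewest reads of the 8. It lay at 2.54, 3.00 and 2.62 log2 CPM in UT, 3.92, 3.92 and 3.50 in LPS, and 3.55, 3.55 and 3.68 in LPS + BMS. It rose by 1.06 (SE 0.22), or 2.08-fold (limma, adjusted p = 0.00131). Aim2 (ENSMUSG00000037860, chromosome 1, 173350879 to 173466040, plus strand) binds double-stranded DNA in the cytosol. Its values were 5.71, 5.72 and 5.67 log2 CPM in UT, 5.56, 5.78 and 5.61 in LPS, and 5.20, 5.51 and 5.25 in LPS + BMS. UT and LPS values overlapped, while all 3 LPS + BMS values lay below both. Its LPS difference was -0.05 (95% interval -0.34 to 0.24; limma, adjusted p = 0.786), with a sign that turned to 0.05 when libraries were centred on ribosomal protein genes.

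The adaptor went the other way. Pycard (ENSMUSG00000030793, chromosome 7, 127989708 to 127993867, minus strand) links sensors to caspase-1 through its PYD and CARD domains. It lay at 5.75, 5.54 and 5.68 log2 CPM in UT, 4.67, 5.23 and 5.07 in LPS, and 4.73, 4.97 and 5.07 in LPS + BMS. Both treated groups lay below the untreated one, and LPS replicate 1 was lowest. Pycard fell by 0.67 (SE 0.17), from 5.66 ± 0.11 to 4.99 ± 0.28 (SD, n = 3), a 1.59-fold drop (limma, adjusted p = 0.00518). Without LPS replicate 1 the difference was -0.51 and was still called (limma, adjusted p = 0.0138).

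The 3 caspase genes differed among themselves. Casp4 (ENSMUSG00000033538, chromosome 9, 5308828 to 5336783, plus strand) lay at 3.73, 4.13 and 3.95 log2 CPM in UT, 6.94, 7.10 and 7.04 in LPS, and 7.13, 6.90 and 6.94 in LPS + BMS. The treated groups overlapped each other and lay well above UT, and the rise with LPS was 3.09 (SE 0.14), or 8.53-fold (limma, adjusted p = 6.87e-10). Casp1 (ENSMUSG00000025888, chromosome 9, 5298517 to 5307265, plus strand) ends 1562 bases ahead of Casp4 on the same strand. It lay at 5.77, 5.68 and 5.11 log2 CPM in UT, 6.52, 6.62 and 6.36 in LPS, and 6.56, 6.61 and 6.74 in LPS + BMS. It rose by 0.98 (SE 0.16), or 1.97-fold (limma, adjusted p = 0.000269). UT replicate 3 was its lowest library, and without it the rise was 0.78. Casp8 (ENSMUSG00000026029, chromosome 1, 58795374 to 58847503, plus strand), which starts apoptosis and can cleave gasdermin D and IL-1β, lay between 4.63 and 5.12 log2 CPM in UT, 4.75 and 4.94 in LPS, and 4.84 and 4.95 in LPS + BMS. All 3 groups overlapped, and its LPS difference of 0.01 had a 95% interval of -0.33 to 0.35, or 0.795-fold to 1.28-fold (limma, adjusted p = 0.963).

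The executioner rose as well. Gsdmd (ENSMUSG00000022575, chromosome 15, 75862327 to 75867408, plus strand) lay at 3.53, 3.20 and 3.34 log2 CPM in UT, 5.01, 4.72 and 4.74 in LPS, and 4.10, 4.36 and 4.40 in LPS + BMS. The 3 groups did not overlap, with LPS + BMS in between. LPS raised it by 1.46 (SE 0.18), or 2.76-fold (limma, adjusted p = 1.59e-05). None of the 6 calls against untreated cells ended under any of the 17 alternatives tried. No member shared its last 1000 annotated bases, where reads of a 3′-end assay should fall, with another annotated gene. Where the reads fell was not examined. Elsewhere Pycard, Casp8, Aim2 and Nlrc4 each overlapped 1 annotated gene, and only that of Casp8, Gm37760, was listed.

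**Figure D2:**
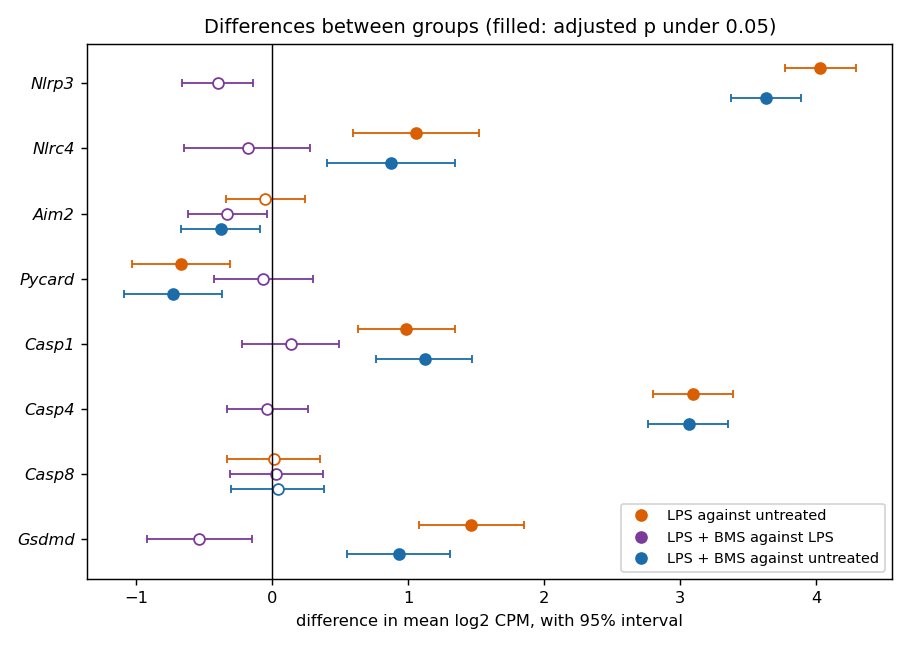
Difference in mean log2 CPM (x axis) with its 95% interval for each gene (y axis) in the 3 comparisons. Filled points passed an adjusted p under 0.05; for LPS + BMS against LPS all 8 points are open, with Gsdmd at -0.54, Nlrp3 at -0.40 and Aim2 at -0.33.

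Set against LPS alone, LPS + BMS gave no called member out of 8 (limma, adjusted p under 0.05), where 2.12% of all tested genes were called (0.959% higher and 1.16% lower). Of those calls 45.3% were higher, and 32.7% with centring on ribosomal protein genes. At an unadjusted p under 0.05 there were 3, all lower, against 14.9% of all genes in either direction and 7.68% of all genes that were lower at that p. These 3, Gsdmd, Nlrp3 and Aim2, were also the members without overlap between the groups, against 21.4% of all genes without overlap and 11.2% that were lower without overlap. The members' median difference was -0.13, and that of all genes was 0.00. Gsdmd was at 4.29 ± 0.16 against 4.82 ± 0.16 log2 CPM (SD, n = 3), a difference of -0.54 (95% interval -0.92 to -0.15; every LPS + BMS library below every LPS library; unadjusted p = 0.00978 and adjusted p = 0.164, limma). Nlrp3 was at 8.45 ± 0.08 against 8.85 ± 0.12 log2 CPM (SD, n = 3), a difference of -0.40 (95% interval -0.66 to -0.14; unadjusted p = 0.00543 and adjusted p = 0.121, limma). Aim2 was at 5.32 ± 0.17 against 5.65 ± 0.11 log2 CPM (SD, n = 3), a difference of -0.33 (95% interval -0.62 to -0.04; unadjusted p = 0.0272 and adjusted p = 0.264, limma). Over the 17 alternatives the difference stayed between -0.61 and -0.44 for Gsdmd, between -0.48 and -0.33 for Nlrp3 and between -0.43 and -0.27 for Aim2. Their adjusted p ranged from 0.0701 to 0.442, from 0.0497 to 0.342 and from 0.0914 to 0.558, and the lowest value for Nlrp3, with weights per library, was the only call among these 3 genes.

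For the other 5 genes the intervals give the differences compatible with these libraries, whose spread may be no more than technical. Casp4 differed by -0.04 (95% interval -0.33 to 0.26), an interval of 0.796-fold to 1.19-fold of the level with LPS alone. Casp8 differed by 0.03 (-0.31 to 0.37), Casp1 by 0.14 (-0.22 to 0.49), Pycard by -0.07 (-0.43 to 0.30) and Nlrc4 by -0.18 (-0.65 to 0.28). Their adjusted p lay between 0.731 and 0.954 (limma), and the LPS and LPS + BMS values of all 5 overlapped. The summed level of S100a8, S100a9 and Csf3r, the only 3 of 9 neutrophil markers listed, was higher in LPS + BMS than in LPS. Whether this reflects a change in cell types, and its part in this comparison, was not tested.

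**Figure D3:**
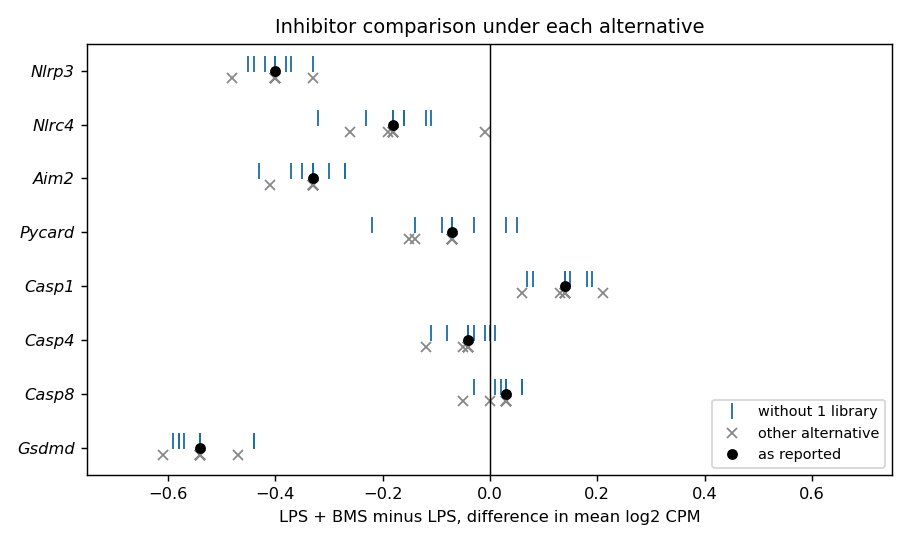
Difference in mean log2 CPM between LPS + BMS and LPS (x axis) for each gene (y axis) as reported (dots), without each library in turn (ticks) and under the other alternatives (crosses). Gsdmd, Nlrp3 and Aim2 stay below 0 throughout, whereas Pycard, Casp4 and Casp8 cross it.

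Compared with untreated cells, LPS + BMS gave 5 genes higher and 2 lower (limma), where 47.1% of all tested genes were called (21.5% higher and 25.6% lower). In 7 members the groups did not overlap, as in 59.4% of all genes. This comparison shares its untreated libraries with the LPS comparison, so the 2 are not independent. Nlrp3 was at 3.63 (SE 0.12), Casp4 at 3.06 (SE 0.14), Casp1 at 1.12 (SE 0.16), Gsdmd at 0.93 (SE 0.18), Nlrc4 at 0.87 (SE 0.22) and Pycard at -0.73 (SE 0.17). In folds, Nlrp3 was 12.4-fold and Gsdmd 1.90-fold above untreated cells, beside 16.4-fold and 2.76-fold with LPS alone. Aim2, at -0.38 (95% interval -0.67 to -0.09), was also called (limma, adjusted p = 0.0311), with 3 of 3 libraries below all untreated ones. That call ended without any 1 of the untreated libraries, without LPS + BMS replicate 1 or 3, or with centring on ribosomal protein genes (limma, adjusted p up to 0.118). Casp8 differed by 0.04 (95% interval -0.30 to 0.38; limma, adjusted p = 0.852).

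The other genes of the pathway, 84 in 5 lists, put the members in their pathway, and 74 of these genes were tested. The lists too were chosen with earlier results of these data known, so their counts are a description. With LPS 35 were called higher and 16 lower (median difference 0.28), where 21.5% of all tested genes were higher and 25.4% lower (median -0.06). With LPS + BMS against LPS 4 were higher and 5 lower (median -0.04), where 0.959% of all tested genes were higher and 1.16% lower (median 0.00).

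In the list of other sensors 11 of 19 tested genes rose with LPS and 4 fell, with a median difference of 1.11. Of all tested genes 21.5% were higher and 25.4% lower. Ifi205 (4.75, SE 0.24) and Ifi203 (3.65, SE 0.21), relatives of Aim2 with HIN domains, rose, as did Zbp1 (3.72, SE 0.27), a sensor of Z-form nucleic acid, and Nod2 (4.80, SE 0.31), a receptor for bacterial muramyl dipeptide. Nod2 held at most 5 value steps above the lowest value in untreated libraries, so the size of its rise is imprecise. The Ifi200 family genes have similar sequences and may share or lose reads. Nlrp1b, another gene of the NLR family, fell by 5.48 (SE 0.77) to a mean of -0.48 log2 CPM, at 0 to 5 value steps with LPS. Of the NAIP genes, which detect the ligands that activate NLRC4, Naip5 fell by 1.74 (SE 0.23) and Naip6 by 0.98 (SE 0.31), while Nlrc4 itself rose. Naip1 (-0.26, adjusted p = 0.565, limma) and Naip2 (-0.07, adjusted p = 0.759, limma) were not called with LPS. Nlrc3, an inhibitory NLR, fell by 2.25 (SE 0.72) to 1 to 3 value steps. The call of Naip6 ended without UT replicate 1 or 2 or LPS replicate 3, and that of Nlrc3 without UT replicate 2 or 3 or LPS replicate 2 or 3 (limma, adjusted p up to 0.0794 and 0.0815). The NAIP genes have similar sequences, and counting could split their reads. Against LPS alone the inhibitor raised Naip2 (0.72, SE 0.16), the NAIP that detects secretion system rod protein, and lowered Ifi204 (-0.65, SE 0.12).

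Among regulators of assembly 9 of 20 rose with LPS and 6 fell, beside 21.5% and 25.4% of all tested genes. The guanylate-binding proteins, which open bacterial vacuoles and bind LPS, rose most, with Gbp5 at 8.88 (SE 0.30), Gbp2 at 5.47 (SE 0.16), Gbp3 at 5.36 (SE 0.20) and Gbp7 at 5.24 (SE 0.17). Gbp5 lay between 2 and 12 value steps in untreated libraries, and its fold is imprecise. Irf1, a transcription factor of interferon responses, rose by 2.06 (SE 0.23). Of the genes that fell, P2rx7, the ATP-gated channel that lets potassium out, fell by 3.03 (SE 0.31), from 4.52 to 1.49 log2 CPM (3 to 10 value steps with LPS), and Nek7, the kinase that bridges NLRP3 subunits, by 1.18 (SE 0.12), from 6.45 to 5.27 log2 CPM. Txnip, a thioredoxin-binding protein, fell by 0.98 (SE 0.26), or by 0.60 without LPS replicate 1, where it was still called, Irf8, a myeloid transcription factor, by 2.05 (SE 0.11), and Irf2, which drives Gsdmd transcription, by 0.55 (SE 0.13), a call that ended with centring on ribosomal protein genes (limma, adjusted p = 0.0618). With the inhibitor Irf8 (1.10, SE 0.11) and Pstpip1 (0.80, SE 0.16), a pyrin-binding protein, were higher than with LPS alone, and Gbp7 (-0.82, SE 0.17), Gbp2 (-0.75, SE 0.16) and Trim30a (-0.64, SE 0.15) were lower. Irf1 (-0.93, SE 0.23; adjusted p = 0.0545, limma), Irf2 (-0.40, SE 0.13; adjusted p = 0.149), P2rx7 (0.48, SE 0.31; adjusted p = 0.510) and Nek7 (0.13, SE 0.12; adjusted p = 0.664) did not pass. Irf1 did pass without UT replicate 1 or LPS replicate 1, with weights per library and with centring on ribosomal protein genes (limma, adjusted p down to 0.00131).

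In the list of executioners and pore release 3 of 14 rose with LPS and 4 fell (median -0.19), counts close to the 21.5% and 25.4% of all tested genes. Ninj1, which ruptures the membrane at the end of pyroptosis, rose by 0.75 (SE 0.18), and Vps4a, an ATPase of membrane repair, by 0.41 (SE 0.13). Casp9, the initiator caspase of the apoptosome, fell by 1.20 (SE 0.29) and Gsdme, another gasdermin, by 1.97 (SE 0.41; 3 to 8 value steps with LPS), while Chmp3, of the ESCRT repair machinery, fell by 0.44 (SE 0.12). Gsdmd and Gsdme thus moved in opposite directions. The call of Vps4a ended without UT replicate 2 or 3 or LPS replicate 3 and in the fit of only the 2 groups compared, and that of Chmp3 with centring on ribosomal protein genes (limma, adjusted p up to 0.0777 and 0.0681). With LPS + BMS against LPS none of the 14 was called, where 2.12% of all tested genes were. Ninj1 was at -0.10 (SE 0.18) and Gsdme at -0.22 (SE 0.41).

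Of 6 substrates and related cytokines 5 rose with LPS and none fell, beside 21.5% and 25.4% of all tested genes. Il1b rose by 9.71 (SE 0.44), Il1a by 9.46 (SE 0.37), Il1rn, the receptor antagonist, by 5.64 (SE 0.21) and Il18 by 2.26 (SE 0.19); untreated values of Il1a lay within 3 value steps of the lowest. The inhibitor left Il1b at -0.10 (95% interval -1.06 to 0.85) against LPS alone and Il1a at -0.31 (-1.11 to 0.50), whereas Il18, whose product caspase-1 matures, fell by 1.35 (SE 0.19; limma, adjusted p = 0.00304) and Il1rn rose by 1.09 (SE 0.21).

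Among partners of Casp8 in cell death 7 of 15 rose with LPS and 2 fell, beside 21.5% and 25.4% of all tested genes. Cflar, which encodes the caspase-8 brake cFLIP, rose by 3.14 (SE 0.11) while the Casp8 difference was 0.01. Tnfaip3 (5.56, SE 0.21), the deubiquitinase A20, Fas (4.34, SE 0.32; 4 to 14 value steps in untreated libraries), a death receptor, and Birc3 (2.92, SE 0.14), a ubiquitin ligase, rose too, as did Mlkl (1.91, SE 0.26), the pore protein of necroptosis. Casp2 fell by 1.65 (SE 0.29) and Xiap, an inhibitor of caspases, by 0.32 (SE 0.10), a call lost without UT replicate 3 or LPS replicate 2 or 3, with no mean trend and with centring on ribosomal protein genes (limma, adjusted p up to 0.290). Ripk1 (-0.20, SE 0.16), Ripk3 (0.29, SE 0.54) and Fadd (-0.49, SE 0.28) did not pass (adjusted p = 0.331, 0.691 and 0.179, limma). Ripk1 did pass with weights per library (-0.44; limma, adjusted p = 0.0106), and Fadd without LPS replicate 3 (-0.76; limma, adjusted p = 0.0471). With the inhibitor none of the 15 was called, where 2.12% of all tested genes were. Relative to LPS alone, Cflar was at -0.08 (SE 0.11), Mlkl at -0.50 (SE 0.26), Ripk1 at -0.14 (SE 0.16), Ripk3 at 0.11 (SE 0.54) and Fadd at 0.10 (SE 0.28).

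Of the 9 genes of these lists called with the inhibitor, Irf8 and Il18 were called under all 17 alternatives. The other 7 calls ended in at least 1 alternative, each of them without LPS + BMS replicate 1, without LPS + BMS replicate 3 and with no mean trend. The calls of Naip2, Pstpip1, Gbp7 and Gbp2 also ended without LPS + BMS replicate 2 and without LPS replicate 2 or 3, that of Trim30a without LPS replicate 2 or 3 or UT replicate 2, that of Naip2 without UT replicate 2 and those of Naip2 and Gbp2 without LPS replicate 1. Those of Naip2 and Pstpip1 ended as well with centring on ribosomal protein genes, that of Naip2 with the replicate block and that of Trim30a in the fit of only the 2 groups compared. The highest adjusted p was 0.200 (Trim30a, limma).

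Against untreated cells, LPS + BMS left 34 of the 74 genes higher and 14 lower (limma, median difference 0.35), where 21.5% of all tested genes were higher and 25.6% lower. Of the sensors, Ifi205 was at 4.40 (SE 0.24), Nod2 at 4.22 (SE 0.31), Ifi203 at 3.17 (SE 0.21) and Mefv, the pyrin gene, at 3.33 (SE 0.29). Nlrp1b was at -5.05 (SE 0.77), Nlrc3 at -3.72 (SE 0.72), Nlrp1a at -1.52 (SE 0.37) and Naip5 at -1.35 (SE 0.23). P2rx7 was at -2.55 (SE 0.31), Nek7 at -1.05 (SE 0.12), Irf2 at -0.95 (SE 0.13) and Irf8 at -0.95 (SE 0.11). Il18 was at 0.91 (SE 0.19) above untreated cells, beside 2.26 with LPS alone, and Il1rn at 6.73 (SE 0.21), beside 5.64.

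**Figure D4:**
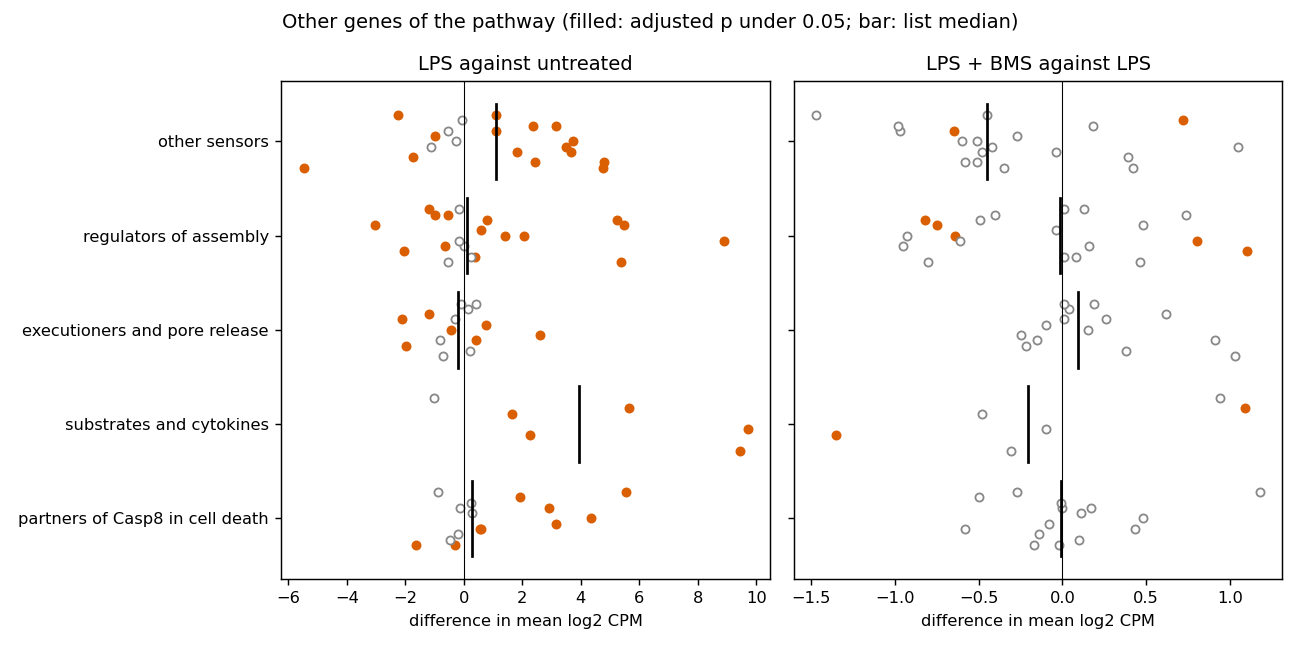
Difference in mean log2 CPM (x axis) of each tested gene in the 5 lists (y axis), for LPS against untreated (left) and LPS + BMS against LPS (right, on a narrower axis). Filled points passed an adjusted p under 0.05 and bars give list medians; with LPS 35 of 74 genes are filled on the higher side and 16 on the lower, and with the inhibitor 4 and 5.

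The 6 members that spanned at least 1 log2 unit were also set against 10112 other named genes by Pearson correlation over the 9 libraries, which share the division into untreated and treated cells, so that high values are common and are given as a description. Closest to Nlrp3 were Pnrc1 and Mir155hg (r = 0.999 each), of 659 genes at 0.95 or more. Closest to Casp4 were Slc39a14 and Slco3a1 (0.999 each), of 672 genes at that level. Gsdmd was closest to Klf3 (0.986) and St3gal3 (0.982), and Nlrc4 to Atp10a (0.990) and Zwint (0.988). Casp1 correlated with Lyar at 0.989. Pycard was closest to Stmn1 (0.984) and Plekhb2 (0.978), of only 43 genes at 0.95 or more.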

How the data were processed

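Messenger RNA 3′ ends were sequenced in 9 libraries, 3 per group, from 100 ng total RNA with oligo(dT) priming and 16 PCR cycles, per the labels' protocols. STAR 2.5.2b, featureCounts 1.5.1, limma and edgeR and the build GRCm38 are named in the submitters' processing notes without roles; the strand setting and annotation release are not stated, so reads of overlapping or antisense genes may not be separated. The values the authors deposited, treated as scores, are log2 CPM after quantile normalisation by the authors, as read from the values, whose powers of 2 sum to 987472 to 987498 per library; changes shared by most transcripts are therefore not visible. Raw counts were not used, so no count test was run.

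Each distinct value of a library stands for a read count, so the number of lower values bounds a gene's reads from below, and depth was estimated from distinct values 5 to 40. PCR copies are not independent molecules. Of 12204 identifiers 12181 matched a symbol. Genes with at least 0 log2 CPM in 3 libraries (12196) entered a limma 3.58.1 model (R 4.3.3; group means, mean trend, two-sided, Benjamini-Hochberg over all tested genes); fold changes are powers of 2 of the differences in log2 CPM, and SE is the moderated one. The steps were tested on simulated data. The members and lists were chosen with earlier results of these data known, and no set test was run. The genes named are the 8 members, up to 4 called genes per list and direction, 14 preset pathway genes, and the 2 genes most correlated with each member; a few genes these rules name are not reported here. The NF-kB consensus was widened after a narrower form had no match. Deviations from the group means correlated at -0.297 to 0.165 between same-numbered libraries and at -0.215 to 0.294 between differently numbered ones. Pairing by replicate number was therefore not apparent. With 3 libraries a group this check cannot exclude it.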

Additional observations from a re-analysis of the deposited data

How the results depend on the processing

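The calls of members kept their side of the threshold in the 17 alternatives per comparison, except Nlrp3 against LPS with weights per library and Aim2 against untreated (given above). Against LPS the number of genes called was 258, and 165 with centring on ribosomal protein genes (higher share 32.7% instead of 45.3%), 99 with no mean trend, 814 with weights per library, and 62 to 317 without 1 library. Members called lower there numbered 1 with weights per library. Against untreated, members called lower with LPS + BMS numbered 1 with centring on ribosomal protein genes and 1 to 2 without 1 library. With that centring the all-gene median difference was 0.04 instead of -0.06 with LPS and moved from 0.00 to -0.08 with the inhibitor.

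Sign changes were all in differences that had not passed the test. With weights per library these were Casp8 with LPS (-0.08) and with LPS + BMS against untreated (-0.08), and against LPS Ripk1 (0.03), Ripk3 (-0.34) and Fadd (-0.23). With centring on ribosomal protein genes they were Aim2 with LPS (0.05) and Casp8 against LPS (-0.05). Without 1 library the differences ranged, with LPS, from -0.11 to 0.14 for Casp8 and from -0.11 to 0.76 for Ripk3; with LPS + BMS against untreated, from -0.08 to 0.17 for Casp8 and from -0.00 to 0.72 for Ripk3. Against LPS they ranged from -0.22 to 0.05 for Pycard, from -0.11 to 0.01 for Casp4, from -0.03 to 0.06 for Casp8, from -0.49 to 0.09 for Il1b, from -0.57 to 0.03 for Gsdme, from -0.36 to 0.43 for Ripk3 and from -0.13 to 0.38 for Fadd. The cause was not tested.

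The replicate block left 208 genes called against LPS, 5531 with LPS and 5558 with LPS + BMS against untreated, and changed no call of a member; the call of Naip2 against LPS ended (limma, adjusted p = 0.0584). Few reads in untreated libraries limit the size of several rises, among them those of Il1a, Nod2, Gbp5 and Fas. Ripk1 with LPS + BMS against untreated, not called otherwise, was called with weights per library (-0.40; limma, adjusted p = 0.0197). The stricter filter of 10 CPM removed Nlrc3, Nlrp1a, Casp9, Gsdme, Ripk3 and Fadd, among the genes named. Another pseudocount was not run, since the values are already logged.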
